A study of Homo sapiens with 6 samples.

Results

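Hypoxia-inducible factors (HIFs) are described here through 10 genes: the oxygen-regulated subunits HIF1A and EPAS1, the prolyl hydroxylases EGLN1 and EGLN3, and 6 genes that HIFs are known to switch on, CA9, NDRG1, ANKRD37, VEGFA, BNIP3 and ADM. They were picked by symbol from the 17335 genes of the deposited expression table, and all 10 were found there and passed the filter on low values. RNA was sequenced from A549, an established cell line grown from a human lung adenocarcinoma. One group of 3 libraries came from cells given BRQ and the other group of 3 from cells given the solvent DMSO. The series title names a DHODH inhibitor, DHODH being a mitochondrial enzyme of pyrimidine synthesis, and BRQ is taken to be that compound; neither its dose nor the length of exposure is in the labels. Nothing in the labels sets the oxygen supply apart between groups or says whether the cultures were separate, so the p-values rest on library-to-library spread that could be technical alone.

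In cells with enough oxygen, EGLN enzymes hydroxylate prolines of the HIF alpha subunits, the ubiquitin ligase subunit VHL then binds them, and the proteasome destroys them. When oxygen or iron is short, the alpha subunits accumulate, pair with ARNT and activate genes through short DNA elements with a core of ACGTG or GCGTG. This control acts largely on protein, so RNA levels of HIF1A or EPAS1 do not give the amount of active factor, which was not measured. EGLN3 and EGLN1 are themselves known HIF targets and form a feedback loop.

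Both HIF subunit genes were lower in BRQ, while most of their targets among the 10 were higher. At an adjusted p under 0.05 in limma, 6 of the 10 genes were higher in BRQ (44.3% of the 12258 tested genes were) and 3 were lower (35.4%), while EGLN1 was not called. Calls in either direction thus covered 9 of 10 members, against 79.7% of tested genes, and the values of both groups did not overlap for 9 of 10 members, against 81.4% of tested genes. Both shares were near their backgrounds. EGLN3, CA9, NDRG1, ANKRD37 and BNIP3 rose at least 2-fold, which is 5 of 10 genes, against 10.3% of tested genes, and 0 of the 10 fell by that much (5.12% of tested genes). Members were chosen with earlier results of these data known, so these shares describe the set and do not test it. BNIP3 was just under 2-fold, which leaves 4 of 10 genes, under trimmed-mean scaling (log2 fold change 0.94), under quantile normalization (0.97) and without BRQ replicate 2 (0.99). Fold changes are log2 values of FPKM + 0.5 (FPKM: fragments scaled by gene length and library total), BRQ over DMSO. Their median was 0.74 over the members and 0.07 over all tested genes. Scaling the libraries by trimmed means moved the all-gene median by -0.12, to -0.05; under it the 9 called members kept their direction and call, and EGLN1 turned to lower. In RNA from whole cultures, fewer cells of a kind and less RNA per cell cannot be told apart.

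**Figure D1:**
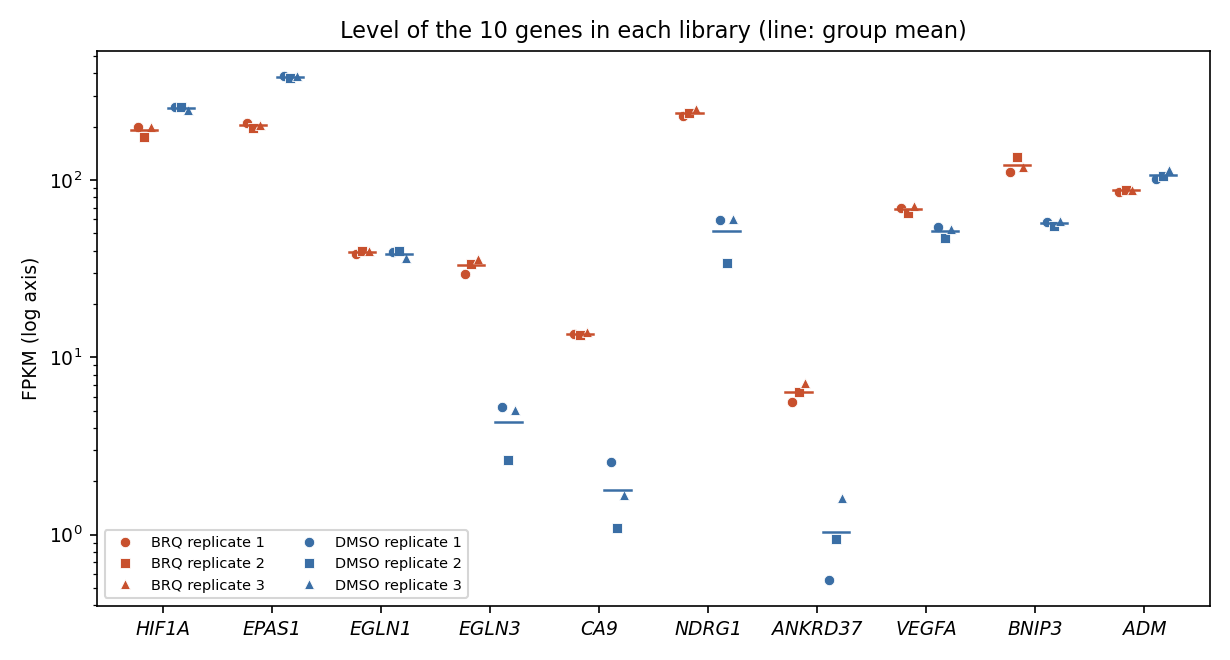
FPKM on a log axis of the 10 genes in 3 BRQ and 3 DMSO libraries, with symbols for replicates and a line at each group mean. Of the 10 genes only EGLN1 has overlapping groups, and DMSO replicate 2 lies below the other DMSO libraries for EGLN3, CA9 and NDRG1.

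Read totals per library, recovered from FPKM steps, were 32195353 to 34908895 reads in BRQ and 27789225 to 29644462 in DMSO. The 5 epithelial markers summed to 1024 to 1104 FPKM in BRQ and 651 to 664 in DMSO, led by the keratin gene KRT18. Of 6 alveolar markers only NAPSA and ABCA3 averaged at least 1 FPKM over the libraries. NKX2-1 and the surfactant genes SFTPA1, SFTPB and SFTPC averaged at most 0.103 FPKM in either group, so an alveolar identity was not visible in the surfactant markers. The 3 leukocyte markers in the table summed to 144 to 152 FPKM in BRQ and 45.7 to 53.5 in DMSO, nearly all of it CD68, a lysosomal gene, and PTPRC averaged 0.00327 FPKM in BRQ and 0.00556 in DMSO. The 4 endothelial markers reached at most 0.267 FPKM together in any library, and the 1 erythroid marker in the table, HBA1, at most 0.312. The 5 fibroblast and smooth muscle markers, mostly ACTA2, summed to 23.2 to 24.9 FPKM in BRQ and 16.3 to 16.99 in DMSO. What part these marker sums have in the results was not tested.

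HIF1A encodes the alpha subunit found in nearly all cells. Its level was 199, 176 and 198 FPKM in the BRQ libraries, against 259, 259.7 and 249 FPKM in the DMSO libraries. All 3 BRQ libraries were below all 3 DMSO libraries, with BRQ replicate 2 the lowest. The mean was 191 ± 13.0 FPKM in BRQ and 256 ± 6.02 in DMSO (SD, n = 3 libraries in each group here and below), which is a change of -0.42 in log2 with a standard error of 0.05 (adjusted p = 1.03e-05 by limma). It rested on 23752 to 32268 reads per library.

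EPAS1 encodes HIF-2 alpha, best known from endothelium, kidney and lung. It had 210.4, 198 and 205 FPKM in the BRQ libraries, against 385, 377 and 387 FPKM in the DMSO libraries. The gap between groups was far wider than the range within either. EPAS1 averaged 204 ± 6.29 FPKM in BRQ and 383 ± 5.20 in DMSO, so its BRQ level was 53.4% of its DMSO level (log2 fold change -0.90 with a standard error of 0.03, adjusted p = 1.78e-09 by limma). Its level per length was above that of 98.0% of tested genes in BRQ and 99.1% in DMSO.

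The balance between the subunit RNAs differed as well. The ratio of EPAS1 to HIF1A FPKM was 1.06, 1.12 and 1.03 in the BRQ libraries, against 1.49, 1.453 and 1.56 in the DMSO libraries. EPAS1 RNA outweighed HIF1A RNA in every library, by less in BRQ, and the groups did not overlap (exact permutation test, two-sided, p = 0.1, the smallest that 3 against 3 allows). EPAS1 spans 89.3 kb of chromosome 2 (46297407 to 46386697, GRCh38) and HIF1A 52.7 kb of chromosome 14 (61695513 to 61748258). The 3938 tested genes of 30 to 100 kb changed by a median of 0.06 in log2, with 5th and 95th percentiles of -0.94 and 1.14. HIF1A shares 117 exonic bases with HIF1A-AS1 on the opposite strand and 148 with AL137129.1 on its own, and whether the counting used strand is not stated in the labels.

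Of the binding partners, ARNT2 changed more than ARNT. ARNT, the constitutive partner of both alpha subunits, had 15.7 ± 0.294 FPKM in BRQ and 16.8 ± 0.272 in DMSO (log2 fold change -0.10, limma adjusted p = 0.0491), and that call ended in 8 of 15 alternatives, the fits that left out any 1 library among them (adjusted p 0.0621 to 0.129). ARNT2, a related partner best known from brain and kidney, fell to 5.85 ± 0.631 FPKM in BRQ, against 12.4 ± 0.157 in DMSO (log2 fold change -1.03). HIF3A, the third alpha subunit, was listed at 0.00502 FPKM on average in BRQ and 0.00702 in DMSO and was not tested.

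Of the prolyl hydroxylases among the 10 genes, EGLN3 rose and EGLN1 was not called. EGLN1, the main HIF hydroxylase in most cells, had 38.1, 39.8 and 39.7 FPKM in the BRQ libraries, against 39.2, 39.6 and 36.5 FPKM in the DMSO libraries. The groups overlapped. The log2 fold change was 0.03 (95% confidence interval -0.06 to 0.12, limma adjusted p = 0.534), and trimmed-mean scaling gave -0.10 with a call as lower (adjusted p = 0.0439; 0.0439 to 0.868 over the 15 alternatives).

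EGLN3, the hydroxylase known for strong induction in hypoxia, rose. It had 29.7, 33.5 and 36.0 FPKM in the BRQ libraries, against 5.23, 2.64 and 5.03 FPKM in the DMSO libraries. The lowest BRQ library was 5.68 times the highest DMSO library, and DMSO replicate 2 was well under the other DMSO libraries. Means were 33.1 ± 3.17 FPKM in BRQ and 4.30 ± 1.44 in DMSO, a 7.69-fold rise (log2 fold change 2.85 with a standard error of 0.19, adjusted p = 2.53e-07 by limma). The ratio of EGLN3 to EGLN1 FPKM was 0.78, 0.84 and 0.908 in the BRQ libraries, against 0.133, 0.0668 and 0.138 in the DMSO libraries. EGLN3 RNA thus stayed below EGLN1 RNA in every library and came closest to it in BRQ, again with no overlap (exact permutation test, two-sided, p = 0.1, the smallest possible).

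EGLN2, the third HIF prolyl hydroxylase, fell to 43.1 ± 2.37 FPKM in BRQ, against 59.2 ± 2.51 in DMSO (log2 fold change -0.45). HIF1AN, the asparagine hydroxylase that keeps HIF from its coactivators, rose to 9.51 ± 0.0841 FPKM in BRQ, against 7.95 ± 0.297 in DMSO (log2 fold change 0.25, limma adjusted p = 0.00133). VHL had 14.7 ± 0.117 FPKM in BRQ and 16.7 ± 0.754 in DMSO (log2 fold change -0.18, limma adjusted p = 0.00495). From high to low, the FPKM of the oxygen-sensing enzymes was ordered EGLN2, EGLN1, EGLN3 and HIF1AN in BRQ, and EGLN2, EGLN1, HIF1AN and EGLN3 in DMSO. By their spread, EGLN2 (41.2 to 45.8 FPKM) and EGLN1 (38.1 to 39.8 FPKM) were close neighbours in BRQ.

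Of 20 listed partners and regulators 19 were tested. Of these 10 rose, against 44.3% of all tested genes, and 7 fell, against 35.4%, shares near the background, while SIAH1 and SIAH2 passed in neither direction. The median log2 value was 0.12, and trimmed-mean scaling gave 8 that rose and 8 that fell. Those that changed most did so in both directions. The HSP90 gene HSP90AA1, whose protein stabilises HIF1A, rose to 382 ± 7.74 FPKM in BRQ, against 180.3 ± 1.58 in DMSO. The membrane-bound prolyl hydroxylase P4HTM (0.91), the elongin subunit ELOB (0.58), OS9 (0.50) and CITED2 (0.42), which competes with HIF for coactivators, had higher log2 fold changes as given. RACK1, a ribosomal protein that also promotes HIF1A breakdown, fell to 670.3 ± 7.93 FPKM in BRQ, against 976 ± 17.6 in DMSO. HSP90AA1 and RACK1 have pseudogene copies, which makes their levels uncertain.

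HIF binds its targets at elements that hold ACGTG or GCGTG, and the promoter windows that hold ACGTG are shown for that reason. Windows run from 250 bases before to 50 bases after each start (RefSeq, GRCh38.p14); 9 windows of 8 members were in the table, HIF1A having 2, while NDRG1 and VEGFA were not matched there. ACGTG on either strand occurred in the windows of EGLN1, CA9, ANKRD37 and BNIP3, which is 4 of 9 windows, against 25.5% of the 14694 windows of tested genes. ACGTG or GCGTG on either strand occurred in 7 of 9, against 60.7%. The windows below read 5′ to 3′ on the gene's strand, with ACGTG or its reverse complement CACGT in capitals; the palindrome CACGTG holds both and counts as 2 overlapping matches.
CA9, chr9:35673678-35673977, plus strand: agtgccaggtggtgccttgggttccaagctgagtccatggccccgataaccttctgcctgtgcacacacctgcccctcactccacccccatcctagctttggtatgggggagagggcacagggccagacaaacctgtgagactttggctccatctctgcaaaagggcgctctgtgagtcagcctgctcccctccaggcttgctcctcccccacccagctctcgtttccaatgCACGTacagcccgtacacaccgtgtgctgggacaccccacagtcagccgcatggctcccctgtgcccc
ANKRD37, chr4:185396591-185396890, plus strand: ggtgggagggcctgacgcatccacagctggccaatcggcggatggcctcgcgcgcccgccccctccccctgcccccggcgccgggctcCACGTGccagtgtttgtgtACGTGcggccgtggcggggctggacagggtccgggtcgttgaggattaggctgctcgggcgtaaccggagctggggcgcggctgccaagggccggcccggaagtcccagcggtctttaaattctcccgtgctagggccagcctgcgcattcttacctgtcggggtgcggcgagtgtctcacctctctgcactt
BNIP3, chr10:131981874-131982173, minus strand: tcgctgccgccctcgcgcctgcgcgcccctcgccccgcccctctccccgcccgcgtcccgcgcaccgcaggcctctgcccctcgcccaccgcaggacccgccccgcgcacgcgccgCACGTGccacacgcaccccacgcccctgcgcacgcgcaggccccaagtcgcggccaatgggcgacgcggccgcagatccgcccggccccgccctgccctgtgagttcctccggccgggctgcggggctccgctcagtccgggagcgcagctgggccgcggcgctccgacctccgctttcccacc
EGLN1, chr1:231422238-231422537, minus strand: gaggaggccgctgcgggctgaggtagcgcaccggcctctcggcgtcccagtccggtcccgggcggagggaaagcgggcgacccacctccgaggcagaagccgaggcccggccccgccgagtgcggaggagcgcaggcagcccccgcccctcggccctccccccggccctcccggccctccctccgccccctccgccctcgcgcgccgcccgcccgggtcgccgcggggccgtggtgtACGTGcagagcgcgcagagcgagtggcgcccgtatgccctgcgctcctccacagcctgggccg

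In CA9 the match began 18 bases before the start and lay on the opposite strand. ANKRD37 held CACGTG beginning 162 bases and ACGTG 143 bases before its start, BNIP3 held CACGTG beginning 134 bases before, and EGLN1 held ACGTG 13 bases before. A window with the core did not go with a change in RNA one to one: EGLN1 had a match and was not called, and EGLN3, which rose 7.69-fold, had 0 matches in its window. A match describes letters only, and elements outside these windows were not searched.

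CA9 encodes carbonic anhydrase IX, a cell surface enzyme that helps to handle acid and a common hypoxia marker. It had 13.5, 13.3 and 13.95 FPKM in the BRQ libraries, against 2.56, 1.09 and 1.68 FPKM in the DMSO libraries. The BRQ libraries were tightly grouped and the DMSO libraries were spread more than 2-fold. CA9 averaged 13.6 ± 0.328 FPKM in BRQ and 1.78 ± 0.740 in DMSO, a 7.65-fold rise (log2 fold change 2.68 with a standard error of 0.18, adjusted p = 2.998e-07 by limma). Its DMSO libraries held 50 to 110 reads. CA9 shares 643 exonic bases with ARHGEF39 on the opposite strand, which had 2.47 ± 0.392 FPKM in BRQ and 1.54 ± 0.264 in DMSO (log2 fold change 0.54).

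ANKRD37, an ankyrin repeat protein known as a direct HIF1 target, was the scarcest of the 10. It had 5.62, 6.34 and 7.16 FPKM in the BRQ libraries, against 0.551, 0.947 and 1.61 FPKM in the DMSO libraries. Here DMSO replicate 1 was the lowest, with 12 reads, and DMSO replicate 3 the highest, with 36. The change was 6.15-fold by means (log2 fold change 2.21 with a standard error of 0.21, adjusted p = 3.24e-06 by limma), and the log2 value ranged from 1.88 to 2.72 over the alternatives, lowest with a pseudocount of 1. ANKRD37 shares 909 exonic bases with UFSP2 on the opposite strand, which had 9.44 ± 0.814 FPKM in BRQ and 7.94 ± 0.180 in DMSO (log2 fold change 0.23).

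NDRG1, a stress-responsive gene linked to growth arrest and metastasis, reached the highest level of the targets. It had 229.5, 239 and 253 FPKM in the BRQ libraries, against 59.8, 34.1 and 60.2 FPKM in the DMSO libraries. Every BRQ library was at least 3.81 times every DMSO library. NDRG1 averaged 241 ± 11.6 FPKM in BRQ and 51.4 ± 14.9 in DMSO (log2 fold change 2.26 with a standard error of 0.17, adjusted p = 7.62e-07 by limma). Its BRQ mean stood above the BRQ means of EPAS1 (204 FPKM) and HIF1A (191 FPKM) and below their DMSO means (383 and 256 FPKM). It overlaps no other gene in GENCODE release 29.

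BNIP3, a mitochondrial outer membrane protein that marks mitochondria for autophagy, rose about 2-fold. It had 111, 135 and 118 FPKM in the BRQ libraries, against 58.0, 55.2 and 58.8 FPKM in the DMSO libraries. BRQ replicate 2 was the highest, and the DMSO libraries were close together. The ratio of means was 2.12 (log2 fold change 1.07 with a standard error of 0.06, adjusted p = 9.19e-08 by limma). BNIP3L, its relative with the same role, rose more, to 101 ± 10.1 FPKM in BRQ, against 26.5 ± 2.03 in DMSO (log2 fold change 1.90); the difference between these changes was not tested.

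VEGFA, the main growth factor for blood vessels, rose little. It had 69.7, 65.3 and 71.9 FPKM in the BRQ libraries, against 54.4, 47.4 and 52.8 FPKM in the DMSO libraries. The groups were apart, with BRQ replicate 2 and DMSO replicate 2 the lowest of each. The ratio of means was 1.34 (log2 fold change 0.42 with a standard error of 0.05, adjusted p = 3.93e-05 by limma), at the 70.7th percentile of fold changes of all tested genes. VEGFA shares 188 exonic bases with an antisense RNA, AL136131.3. PGF, the placental growth factor of the same family, was raised further, at 19.3 ± 1.10 FPKM in BRQ and 2.31 ± 0.505 in DMSO (log2 fold change 2.83).

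ADM, which encodes the vessel-dilating peptide adrenomedullin, was the 1 target of the 6 that fell. It had 86.0, 88.3 and 88.3 FPKM in the BRQ libraries, against 101, 105 and 114 FPKM in the DMSO libraries. The groups did not overlap. The mean in BRQ was 82.0% of that in DMSO (log2 fold change -0.28 with a standard error of 0.04, adjusted p = 0.000138 by limma), and the log2 value lay between -0.41 and -0.23 in all 15 alternatives. The order of the target means was NDRG1, BNIP3, ADM, VEGFA, EGLN1, EGLN3, CA9 and ANKRD37 in BRQ, and ADM, BNIP3, VEGFA, NDRG1, EGLN1, EGLN3, CA9 and ANKRD37 in DMSO. In DMSO the VEGFA and NDRG1 means, 51.5 and 51.4 FPKM, did not differ beyond their spread.

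**Figure D2:**
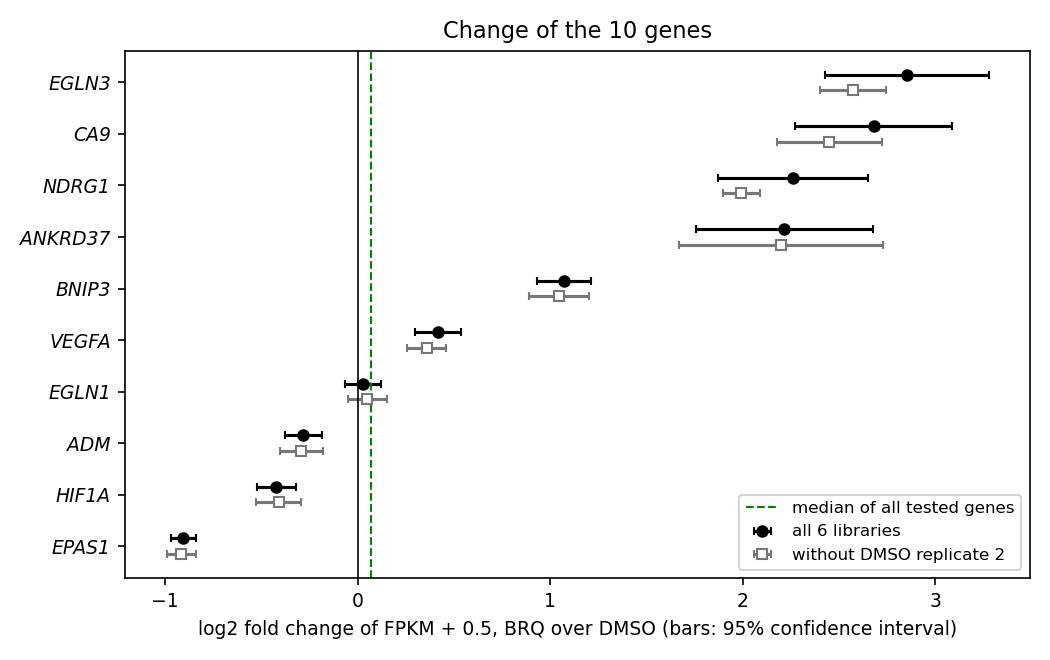
Log2 fold change of FPKM + 0.5, BRQ over DMSO, of the 10 genes with 95% confidence intervals from limma, for all 6 libraries (filled circles) and without DMSO replicate 2 (open squares); the dashed line is the median of all tested genes, 0.07. The intervals of EGLN3 and NDRG1 narrow and their values fall to 2.57 and 1.99 when that library is left out, and 0 lies only within the EGLN1 intervals.

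DMSO replicate 2 differed from the other DMSO libraries in some of these genes and not in others. Its FPKM was 51.6% of the mean of DMSO replicates 1 and 3 for EGLN3, 51.5% for CA9 and 56.9% for NDRG1. For VEGFA it was 88.5%, for BNIP3 94.6% and for ADM 97.8%, and for HIF1A (102%), EPAS1 (97.7%) and EGLN1 (105%) it was close to the other libraries. On the log2 scale the differences were -0.84 for EGLN3, -0.81 for NDRG1 and -0.70 for CA9, against a 5th percentile of -0.22 over all tested genes. DMSO replicates 1 and 3 were close to each other for EGLN3 and NDRG1 but not for CA9. In CA9, DMSO replicate 1 differed from the others by 0.72, about as far upward, so DMSO replicate 2 was not the only library apart. A difference of -0.5 or lower was seen in 85 tested genes (0.693%) in DMSO replicate 2, and in 67 and 69 genes when DMSO replicates 1 and 3 were set against the others in the same way, so over all genes this library was not much further from its group than they were. In that library, whose total was the largest of the DMSO group, NDRG1 had 5032 reads, EGLN3 212 and CA9 50. ANKRD37 did not share the pattern, since DMSO replicate 1 was lower. Within BRQ the differences of the 10 genes in any library from the others ran from -0.24 to 0.24.

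**Figure D3:**
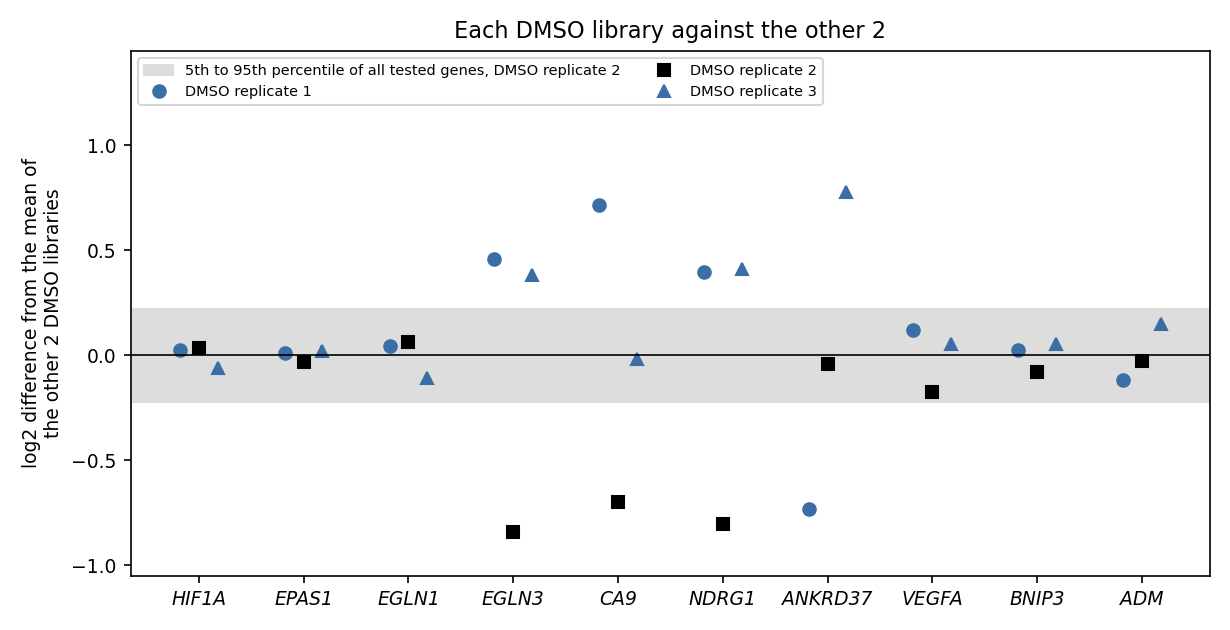
Log2 difference of each DMSO library from the mean of the other DMSO libraries for the 10 genes; the grey band spans the 5th to 95th percentiles (-0.22 to 0.22) of all tested genes for DMSO replicate 2. The black squares of EGLN3, CA9 and NDRG1 lie between -0.84 and -0.70, and those of the other 7 genes lie within the band.

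Leaving out DMSO replicate 2 kept all 9 calls. The ratio of means became 6.45 instead of 7.69 for EGLN3, 6.41 instead of 7.65 for CA9 and 4.01 instead of 4.68 for NDRG1. The limma adjusted p-values without it were 2.73e-09 for EGLN3, 7.45e-08 for CA9 and 4.05e-10 for NDRG1. For CA9, leaving out DMSO replicate 1 instead gave a log2 fold change of 2.92 and a limma adjusted p of 2.54e-08. Against DMSO replicate 2 alone, the BRQ means were 12.5-fold higher for both EGLN3 and CA9 and 7.05-fold higher for NDRG1. NDRG1 had the lowest value of that library relative to the other DMSO libraries among 7585 genes with a DMSO mean of at least 5 FPKM. ANGPTL4, SLC16A3 and IGFBP3 were also among the 10 lowest. IGFBP3, a growth factor binding protein, had 444 ± 50.9 FPKM in BRQ. It had 114 FPKM in DMSO replicate 2 and 169.9 and 171 in the other DMSO libraries. The rest of the 10 did not share a direction in BRQ. PRR4 was called lower (log2 fold change -2.72), and SMN1 (-0.34) and MPST (0.01) were not called. TMEM256 (0.76), NME3 (0.52) and CARD19 (0.44) were called higher. For SMN1, DMSO replicate 1 was lower still, at 8.38 FPKM against 8.86 in DMSO replicate 2.

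DMSO replicate 2 was the lowest DMSO library for 6 of the 10 members, for 23 of 32 other HIF targets outside glycolysis and for 13 of 20 glycolytic HIF targets. It was the lowest for 3 of 19 partners and regulators, for 33.0% of all tested genes and for 39.0% of the 1258 genes that rose at least 2-fold. The median log2 difference of that library from the others was -0.09 in both target lists and 0.01 over all tested genes. Most of these differences were thus far smaller than those of EGLN3, CA9 and NDRG1.

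Targets outside the 10 genes moved the same way more often than the opposite way. The pathway lists, too, were chosen with earlier results of these data known, so their shares are descriptions. Of 35 targets outside glycolysis 32 were tested. Of these 23 rose, against 44.3% of all tested genes, 5 fell, against 35.4%, and 4 passed in neither direction. The median log2 value was 0.64, and 12 of 32 rose at least 2-fold, against 10.3% of all tested genes. The lipid droplet protein gene HILPDA rose to 109 ± 4.605 FPKM in BRQ, against 15.1 ± 1.78 in DMSO. The collagen prolyl hydroxylase gene P4HA1 rose to 50.9 ± 1.92 FPKM in BRQ, against 16.4 ± 0.788 in DMSO, and P4HA2 by 1.30 on the log2 scale. The collagen crosslinking enzyme LOX (1.95), the chemokine receptor CXCR4 (1.90) and the lipase inhibitor ANGPTL4 (1.40) had the log2 rises given. LOX had 5.06, 3.78 and 6.22 FPKM in the BRQ libraries, against 1.49, 0.287 and 1.28 FPKM in the DMSO libraries, again lowest in DMSO replicate 2.

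The 5 that fell included both BHLHE repressors of the clock. BHLHE41 had 0.997 ± 0.201 FPKM in BRQ and 2.26 ± 0.276 in DMSO (log2 fold change -0.89), and BHLHE40 had 192 ± 5.54 FPKM in BRQ and 258 ± 2.23 in DMSO (-0.42). RIOK3, a kinase, fell by 0.40, the mTOR inhibitor DDIT4 by 0.19 and the lipoprotein receptor VLDLR by 0.15 on the log2 scale. The VLDLR call was lost in 3 alternatives, without BRQ replicate 1 (adjusted p = 0.0971), BRQ replicate 2 (0.0504) or DMSO replicate 2 (0.0969). EPO, LEP and FLT1, which are used mainly in other tissues, were below the filter.

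Among 20 glycolytic and pyruvate targets 19 rose, against 44.3% of all tested genes, 0 fell, against 35.4%, and 1, ENO1, was not called. The count that fell was 0 also at an unadjusted p under 0.05 in limma and with limma-voom on the recovered reads, and 1, ENO1, under trimmed-mean scaling and quantile normalization. Their median log2 fold change was 0.86, and 9 of 20 rose at least 2-fold, against 10.3% of all tested genes. The glucose transporter SLC2A1 rose to 129 ± 8.03 FPKM in BRQ, against 60.1 ± 3.71 in DMSO, and the lactate dehydrogenase gene LDHA to 1136 ± 52.2 FPKM, against 489 ± 19.4. PDK1 (1.32) and PDK3 (1.08), kinases that hold pyruvate back from mitochondria, had these log2 rises. The lactate carrier SLC16A3 had 23.9, 22.1 and 23.7 FPKM in the BRQ libraries, against 8.04, 5.63 and 8.03 FPKM in the DMSO libraries, so it too was lowest in DMSO replicate 2. The aldolase genes ALDOC and ALDOA rose by 3.24 and 2.05 on the log2 scale, from low levels. ALDOC had 21.3 ± 0.969 FPKM in BRQ and 1.85 ± 0.562 in DMSO. ALDOA had 14.6 ± 1.06 FPKM in BRQ and 3.14 ± 0.212 in DMSO. Several glycolytic genes have processed pseudogenes, so their levels are uncertain. For all 3 lists, 87.5% to 95% of tested genes were called, against 79.7% of all tested genes.

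**Figure D4:**
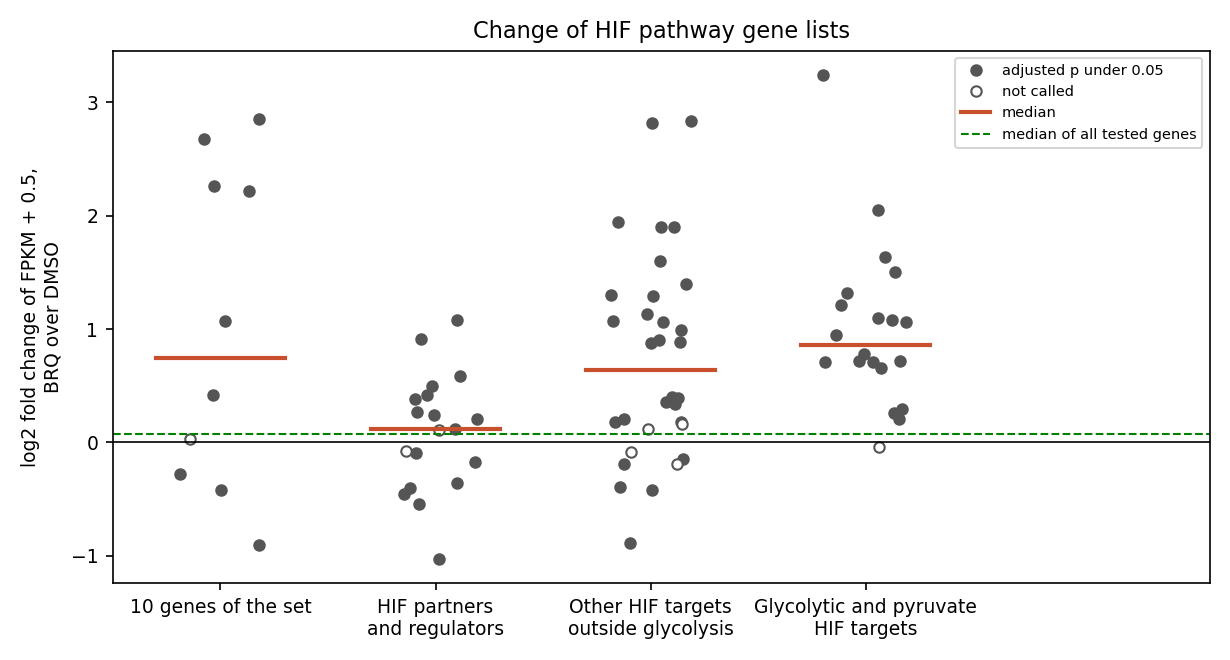
Log2 fold change of FPKM + 0.5, BRQ over DMSO, of each tested gene in the set of 10 and in the 3 pathway lists; filled points passed an adjusted p of 0.05, bars are list medians and the dashed line is the median of all tested genes. Medians are 0.74 for the set, 0.12 for partners and regulators, 0.64 for targets outside glycolysis and 0.86 for glycolytic targets.

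Genes were sought whose profile was most like the mean profile of the 8 members other than HIF1A and EPAS1. The search covered 7646 genes averaging at least 5 FPKM. It used the root mean square distance between log2 profiles over the 6 libraries, each centred on its own mean. The mean profile of the 8 members was 0.63, 0.72 and 0.76 in the BRQ libraries and -0.63, -0.92 and -0.56 in the DMSO libraries. Outside the lists the nearest were SMPD1, ZMYND8, MIEN1, AMPD3, TMEM158, PTPN6, ETFRF1 and DNASE1L1, at distances of 0.06 to 0.09. SMPD1, the lysosomal acid sphingomyelinase, had 20.2, 19.7 and 19.0 FPKM in the BRQ libraries, against 7.37, 5.83 and 7.86 FPKM in the DMSO libraries. Among the members, BNIP3 lay closest to the mean profile (distance 0.20) and ADM farthest (0.85), with the others at 0.46 to 0.75. The named genes thus lay nearer to the average than any member did, and they need not resemble single members such as EGLN3 or CA9. With 6 libraries in 2 groups such likeness mostly reflects the size of the group difference.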

How the data were processed

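Total RNA of 3 BRQ and 3 DMSO samples was made into Illumina libraries, per the labels' protocols. Fastp, HTSeq and hg38 appear, without versions, in the submitters' processing notes; aligner, annotation and strand use: not given in the sources used here. Deposited by the authors were FPKM values of 17335 genes, 1 column per sample, all 6 used. FPKM steps gave whole reads for 100% of genes (within 0.01 of a read, wider at high counts), hence the library totals; counting error is only part of the spread.

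FPKM + 0.5 was taken to log2 and fitted with limma 3.58.1 (R 4.3.3, eBayes with trend, group as the only term). The fit was run on simulated data with 200 changed genes. Since 79.7% of tested genes were called in the real data, that simulation cannot show how reliable the calls are here. The pseudocount understates changes of low genes. A gene was tested where 3 or more libraries reached 0.5 FPKM (5077 were below). P-values are two-sided and Benjamini-Hochberg adjusted over all tested genes. Members, lists and naming rules (largest called changes per list, all that fell) were chosen with earlier results of these data known. The median SE of a log2 fold change was 0.07. Loci and promoters are from RefSeq GRCh38.p14, overlaps from GENCODE release 29. Python 3.11.15, pandas 2.3.3, numpy 2.4.6 and matplotlib 3.10.9 were used. The alternatives were pseudocounts of 0.1 and 1, other filters and scalings, no trend, a replicate block, limma-voom on the recovered reads, and each library left out.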

Additional observations from a re-analysis of the deposited data

How the results depend on the processing

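All 9 called members kept direction and call in all 15 alternatives. EGLN1, not called, reversed under trimmed-mean scaling (-0.0985) and quantile normalization (-0.0251), and ranged from -0.0076 to 0.0499 with 1 library left out. Of the lists, CUL2 (-0.00579), KDM3A (-0.0119) and SIAH1 (-0.00203) reversed under trimmed-mean scaling without a call; the main CUL2 call (log2 fold change 0.12) also ended in 8 other alternatives. Genes called lower among glycolytic targets numbered 1 (ENO1) under trimmed-mean scaling and 1 under quantile normalization, against 0. Over all genes, trimmed-mean scaling called 4479 higher and 5220 lower, quantile normalization 4713 and 4959, limma-voom on recovered reads 5475 and 4400, and leaving out each library 4690 to 5284 and 4061 to 4206, against 5425 and 4343. Replicate numbers share no source in the labels, and same-numbered BRQ and DMSO libraries did not deviate together (correlations -0.038 to -0.0083); with the replicate block 5351 genes were higher and 4278 lower, and no member's call changed. Low read numbers (12 to 36 for ANKRD37 and 50 to 110 for CA9 in DMSO) limit the precision of those fold changes.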
